A study of Mus musculus with 12 samples.

Results

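MiR-128, miR-137, miR-138 and miR-218 are miRNAs known for their high levels in neurons. They were followed here over 12 arrays of mouse retina and sclera by taking every miRNA name on the arrays that begins with mmu-miR-128-, mmu-miR-137-, mmu-miR-138- or mmu-miR-218-. This gave 7 of the 696 mouse miRNA names, namely mmu-miR-128-3p, mmu-miR-137-3p, mmu-miR-138-5p, mmu-miR-138-1-3p, mmu-miR-218-5p, mmu-miR-218-1-3p and mmu-miR-218-2-3p, whose species prefix is left out below. Of the 7, 5 were detected on at least 1 array and 2 were detected on none. The opposite arms miR-128-1-5p, miR-128-2-5p, miR-137-5p and miR-138-2-3p were not among the array names and are not analysed here.

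A miRNA is cut from a hairpin precursor whose arms are named 5p and 3p, and the arm that is kept represses mRNAs that pair with its seed, the bases near its 5′ end. MiR-128 is abundant in mature neurons and dampens their excitability, miR-137 acts in neuronal differentiation and at synapses, miR-138 limits the growth of dendritic spines, and miR-218 is best known from motor neurons. The retina is neural tissue, whereas the sclera is the collagen-rich outer coat of the eye, built by fibroblasts.

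The mice were C57BL/6J and wore a frosted diffuser over the right eye for 10 days from the age of 24 days, and the untreated left eyes of the same animals served as controls. Retina and sclera were taken at 34 days, which gave 4 groups (control retina, myopic retina, control sclera and myopic sclera) of 3 arrays each. Each array was hybridized with RNA pooled from 3 eyes, although the labels also name a single mouse per array, and p-values measure the spread between these pools. The number of a pool links the control and the deprived eyes as well as the retina and the sclera, and it also numbers the 3 slides. A group took the same place on each of the slides, and the effect of place and that of group cannot be told apart.

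The retina arrays detected between 353 and 401 miRNAs and the sclera arrays between 274 and 317. No spot was saturated. All 11 neuronal marker miRNAs on the arrays (such as miR-124-3p and miR-9-5p) were detected on every retina array, and all 6 mesenchymal markers (such as miR-199a-3p and miR-143-3p) on every sclera array. The sclera arrays also gave signal for the photoreceptor and sensory miRNAs miR-183-5p, miR-96-5p and miR-182-5p on all 6 arrays. Control sclera array 3 stood apart with 274 miRNAs detected, and the values of miR-218-5p that turn on it are also given without it.

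The mature sequences are shown first because the seed sets which mRNAs a miRNA pairs with. Bases 2 to 8, the seed, are in capitals, and the sequences are those of RefSeq with the build GRCm38.p6.
miR-128-3p: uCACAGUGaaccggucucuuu
miR-137-3p: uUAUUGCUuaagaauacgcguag
miR-138-5p: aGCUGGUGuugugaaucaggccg
miR-218-5p: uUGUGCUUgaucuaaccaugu
The 4 seeds differ from each other, so that the 4 miRNAs form 4 separate seed groups. The 3 opposite-arm members are shown next because their signals lay near or under the detection limit.
miR-138-1-3p: cGGCUACUucacaacaccaggg
miR-218-1-3p: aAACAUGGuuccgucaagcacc
miR-218-2-3p: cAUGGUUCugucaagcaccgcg
Among the other miRNAs, the seed of miR-128-3p recurs at bases 3 to 9 of miR-27a-3p and miR-27b-3p, which are printed with their own seeds in capitals.
miR-27a-3p: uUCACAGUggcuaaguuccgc
miR-27b-3p: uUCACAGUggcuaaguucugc

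In the GRCm38.p6 annotation of RefSeq the precursor Mir128-1 is at chr1:128202361-128202430 on the plus strand, within the span of R3hdm1. Mir128-2 is at chr9:112118636-112118711 on the minus strand, within the span of Arpp21, and it gives the same mature miR-128-3p. Mir137 is at chr3:118433857-118433929 and lies within the span of no other listed gene. Mir138-1 at chr9:122682876-122682974 also has no such host, whereas Mir138-2 at chr8:94324311-94324381 falls within the span of Nup93. Mir218-1 at chr5:48223942-48224051 and Mir218-2 at chr11:35616816-35616925 are within Slit2 and Slit3, genes of axon guidance ligands. Each host given is transcribed on the strand of its miRNA. Only gene spans were used here, so that exon or intron is not stated.

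Each of the 5 detected members was measured by 2 probes, printed as 10 spots each, that differ by 1 base. The longer probes are shown because their length limits what the signal can tell, and the base added to the shorter probe is in capitals.
miR-128-3p probe: aaagagaccggttcactgtG
miR-137-3p probe: ctacgcgtattcttaagcaA
miR-138-5p probe: cggcctgattcacaA
miR-138-1-3p probe: ccctggtgttgtG
miR-218-5p probe: acatggttagatcaagcacA
The probes of miR-138-5p hold 14 and 15 bases and those of miR-138-1-3p hold 12 and 13 bases, while the probes of miR-128-3p, miR-137-3p and miR-218-5p hold 19 and 20. The probes of miR-128-3p, miR-138-5p and miR-218-5p match 2 loci each, so that the arrays cannot tell the precursors apart.

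All of the 4 main strands, miR-128-3p, miR-137-3p, miR-138-5p and miR-218-5p, were detected on every retina array, and 2 of them, miR-128-3p and miR-218-5p, also on every sclera array. The total gene signal, in which the signals of the detected probes of a miRNA are added up in arbitrary fluorescence units, lists an undetected miRNA at 0.1. MiR-128-3p gave total gene signals of 1073, 1179.6 and 1259 on control retina arrays 1, 2 and 3 and of 1147, 1552 and 1082 on the myopic retina arrays. In the sclera its signals were 75.6, 102 and 29.5 in the controls and 75.4, 54.2 and 42.3 in the myopic eyes. Every retina array thus lay above every sclera array.

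MiR-218-5p, the main strand of both Slit-hosted precursors, gave total gene signals of 499.7, 574 and 669 in the control retina and of 527, 685 and 523 in the myopic retina. In the control sclera its signals were 58.8, 57.4 and 7.89, and in the myopic sclera 42.4, 46.9 and 29.1. The groups of the 2 tissues did not overlap, and control sclera array 3 was the lowest array. The total of 7.89 on that array came from 1 of the 2 probes. The other probe gave a signal of 4.89 with an error of 1.71, which is under the detection limit of 3 times the error.

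MiR-137-3p gave total gene signals of 132, 141 and 140.1 in the control retina and of 134, 174 and 130.2 in the myopic retina, and it was undetected on all 6 sclera arrays. MiR-138-5p gave 225, 227 and 195 in the control retina and 217, 282 and 207 in the myopic retina, and it was likewise undetected on all 6 sclera arrays. MiR-138-1-3p was detected on 4 of the 6 retina arrays, with 8.25 and 7.61 on control arrays 1 and 2 and with 8.58 and 9.61 on myopic arrays 1 and 2, and on no sclera array. MiR-218-1-3p and miR-218-2-3p were listed at 0.1 on all 12 arrays. After the quantile normalization described below, every retina array was above every sclera array for all 4 main strands, as for 30.2% of the 443 miRNAs tested. For miR-137-3p and miR-138-5p, undetected in the sclera, this restates their detection. MiR-138-1-3p, the remaining tested member, was undetected on some retina arrays and was not separated in this way.

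**Figure D1:**
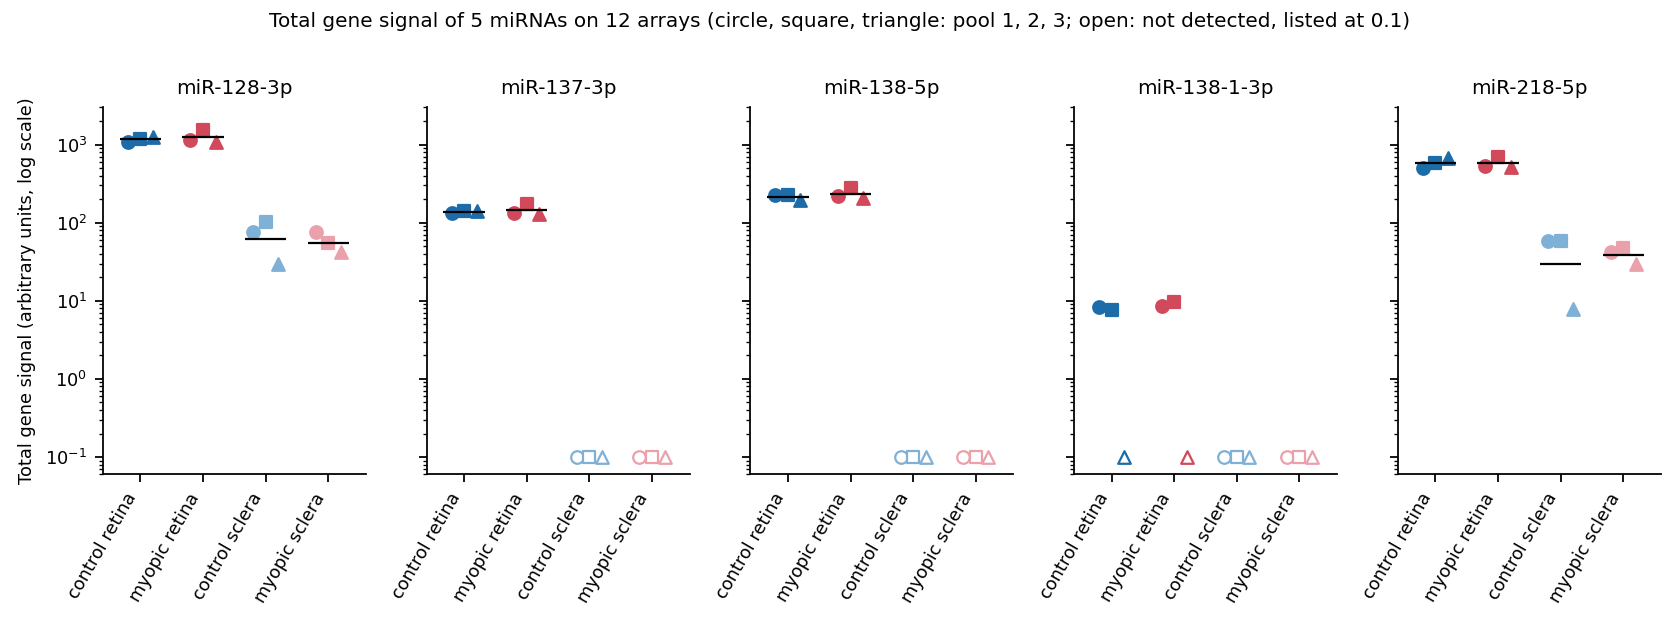
Total gene signal (arbitrary units, log scale) of the 5 detected members on each of the 12 arrays, by group. Filled symbols were detected, open symbols were not and are listed at 0.1, and the lines are geometric means of groups with all 3 arrays detected. MiR-128-3p and miR-218-5p lie lower in the sclera but remain detected, whereas miR-137-3p and miR-138-5p are detected on no sclera array.

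To compare groups, the signals were set to a minimum of 0.5, quantile normalized over the 12 arrays and transformed to log2, so that an undetected miRNA has a value of -1. A miRNA was called when its Benjamini-Hochberg adjusted p-value from limma was under 0.05 and its fold change was at least 2. Of the 5 tested members, 4 were called higher in the control retina than in the control sclera (background 27.5% of the tested miRNAs), and 4 were called higher in the myopic retina than in the myopic sclera (background 32.5%). MiR-137-3p, miR-138-5p and miR-138-1-3p entered the test only through their detection in the retina and had only floor values in the sclera, so that a call for them restates their detection and the count of called members is a description. In bulk tissue, fewer cells of a type and less RNA per cell cannot be told apart.

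MiR-128-3p had a log2 level of 9.84 ± 0.06 (SD, n = 3) in the control retina and 7.06 ± 0.17 (SD, n = 3) in the control sclera. The log2 difference was 2.78 (SE 0.14, limma adjusted p = 9.9e-08), a fold change of 6.86. In the myopic eyes it was 2.75 (SE 0.14, limma adjusted p = 1.0e-07). The difference between these contrasts is the interaction given further on.

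MiR-218-5p had a log2 level of 8.75 ± 0.21 (SD, n = 3) in the control retina and 6.22 ± 0.72 (SD, n = 3) in the control sclera. The log2 difference was 2.53 (SE 0.31, limma adjusted p = 6.7e-05), a fold change of 5.77, and it was 2.11 (limma adjusted p = 8.3e-06) without control sclera array 3. In the myopic eyes it was 1.89 (SE 0.31, limma adjusted p = 4.5e-04), a fold change of 3.71. In the control sclera, where the SD was 0.72, array 3 was the lowest and had 1 of the 2 probes undetected.

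For miR-137-3p and miR-138-5p the sclera level had to be placed, because neither was detected there. The lowest detected signal of any miRNA ran from 2.41 to 3.32 on the sclera arrays, before scaling. The errors of the probes of both miRNAs in the sclera ran from 1.52 to 2.13, so that 3 times the error was higher. A level above the placed one could thus go undetected, and the folds below are not firm lower bounds. With signals scaled to the 75th percentile of each array, each of the 2 probes in the sclera was placed at the lowest detected signal or at its own signal, whichever was higher, and the probes were added up as in the retina. With this placement miR-137-3p was 10.8-fold higher in the control retina than in the control sclera, and 11.3-fold higher in the myopic eyes. MiR-138-5p was 15.0-fold higher in the control retina and 17.6-fold higher in the myopic retina. Expressed as shares, the placed level of the control sclera was 9.23% of the retinal level for miR-137-3p and 6.67% for miR-138-5p.

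The size of the differences depended on how retina and sclera arrays were scaled to each other. Under quantile normalization the median of the 249 miRNAs detected on all 6 control arrays differed by -0.23 between control retina and control sclera, and under scaling to the 75th percentile it differed by 0.14. Relative to that median, miR-128-3p was higher in the control retina by 3.01 on the log2 scale under quantile normalization and by 3.08 under the percentile scaling. MiR-218-5p was higher by 2.76 and 3.09. Over all tested miRNAs, quantile normalization gave 122 miRNAs higher and 102 lower in the control retina, and the percentile scaling gave 160 and 82.

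**Figure D2:**
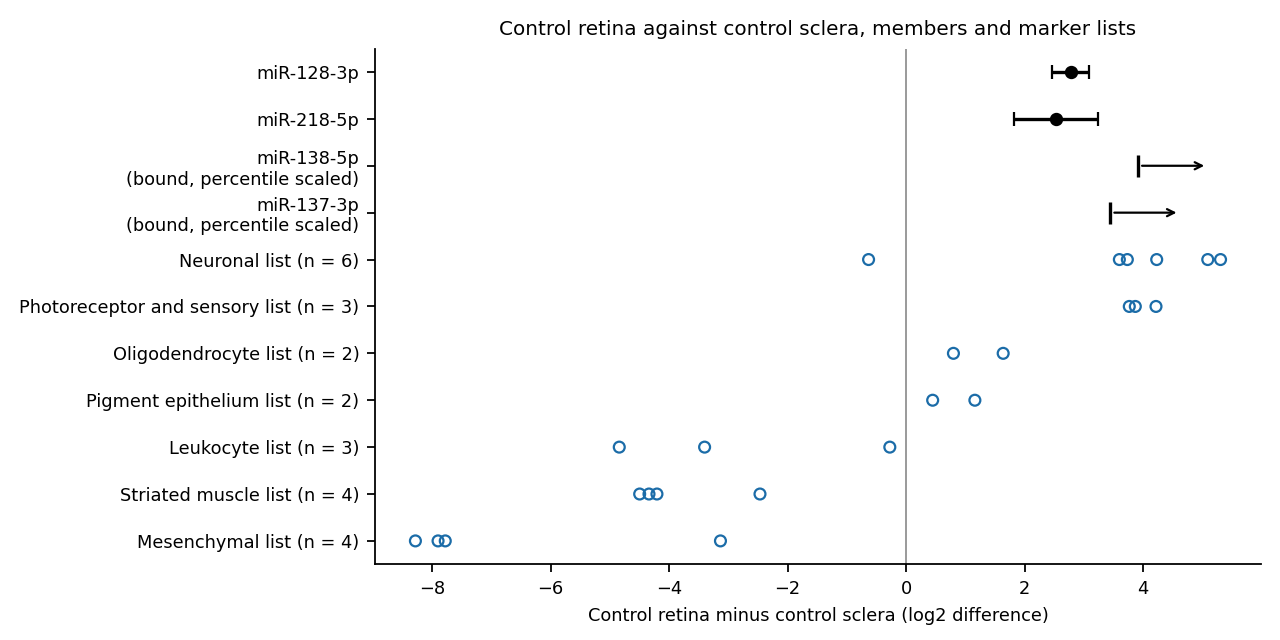
Log2 difference between control retina and control sclera, under quantile normalization for all circles, with 95% intervals for miR-128-3p and miR-218-5p. Arrows start at the differences of miR-138-5p (3.91) and miR-137-3p (3.44) with the undetected sclera level placed as described in the text. These differences, labelled as bounds, are not firm lower bounds. They come from the percentile-scaled signals and are not on the same scale as the circles. Open circles are the miRNAs of each marker list that were detected on all 12 arrays (n in the label). They place miR-128-3p and miR-218-5p between the oligodendrocyte list and the photoreceptor list. On the neuronal list miR-212-3p (-0.63) lies below both and every other plotted miRNA above both.

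The same comparison in the marker lists shows what else differed between the tissues. Of the 11 neuronal markers, 10 were called higher in the control retina, with a median log2 difference of 5.30 over the list. The exception was miR-212-3p, an activity-regulated miRNA, with a log2 difference of -0.63. MiR-7b-5p was detected on no sclera array. MiR-124-5p, miR-129-5p, miR-7a-5p and miR-153-3p were at the floor on control sclera array 3. The calls and differences of these markers thus partly or wholly restate detection. The 6 neuronal markers detected on all arrays had a median log2 difference of 3.98. All 3 photoreceptor and sensory miRNAs were called higher in the control retina, with log2 differences between 3.76 and 4.22. All 6 mesenchymal, all 4 striated muscle and all 6 epithelial markers were called lower in the control retina (background 23% of the tested miRNAs). MiR-214-3p, miR-200a-3p, miR-200c-3p and miR-141-3p were detected on no retina array, and miR-200b-3p and miR-205-5p on 1 each. Their calls thus largely restate detection, and these counts are a description. Of the 2 oligodendrocyte markers, miR-219-5p and miR-338-3p, 1 was called higher in the retina, as was 1 of the 2 pigment epithelium markers, and of the 4 leukocyte markers 2 were called lower.

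Since the sclera arrays carried signal of retinal miRNAs, the sclera level of each member was set against the retina of the same pool after scaling to the 75th percentile. MiR-128-3p in the sclera came to 11.1%, 11.7% and 9.51% of the retina in control pools 1, 2 and 3 and to 12.2%, 9.50% and 9.17% in the myopic pools. MiR-218-5p came to 18.5%, 13.6% and 4.78% in the control pools and to 15.0%, 18.6% and 13.1% in the myopic pools. The 4.78% sets 1 sclera probe against 2 retina probes. Taken singly, the probes of miR-218-5p in control pool 3 came to 8.01% and 7.60% of the retina, and both added up to 7.75%. The share of miR-128-3p ran from 9.17% to 12.2% over the 6 pools, while that of miR-218-5p was lowest in control pool 3 either way.

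MiR-124-3p and the summed photoreceptor and sensory list had lower shares than miR-128-3p in each of the 6 pools. Taken singly, miR-182-5p at 9.42% and miR-183-5p at 9.18% were above the 9.17% of miR-128-3p in myopic pool 3. In the other pools they were below it, as was miR-96-5p in every pool. The summed signal of miR-183-5p, miR-96-5p and miR-182-5p in the sclera was 9.66%, 9.25% and 1.19% of the retina in the control pools and 5.64%, 3.24% and 8.27% in the myopic pools. MiR-124-3p, the most widely used neuronal marker miRNA, came to 7.42%, 7.38% and 1.00% in the control pools and to 5.26%, 2.85% and 6.09% in the myopic pools. In control pool 3 these markers were below all other pools, whereas miR-128-3p there was 9.51%, within the range of 9.17% to 12.2% of the other pools. In myopic pool 2, where both markers were next lowest, miR-218-5p had a share of 18.6%. It had nearly the same share, 18.5%, in control pool 1, where both markers were highest. Of the 11 neuronal markers, 6 were detected on all control sclera arrays and 7 on all myopic sclera arrays, and miR-7b-5p was listed at 0.1 on all of them. The summed neuronal list came to between 1.90% and 7.22% of the retina over the 6 pools. Its total gene signals were between 606 and 6181 in the control sclera and between 1741 and 3635 in the myopic sclera. MiR-124-3p made up most of this sum in the retina, with 65887 of 81527 scaled units in control pool 1. By group means of the control eyes, single neuronal markers detected on all arrays ran from 1.73% (miR-129-2-3p) to 144% (miR-212-3p). The part of retinal RNA in the sclera signal of miR-128-3p and miR-218-5p was not tested.

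**Figure D3:**
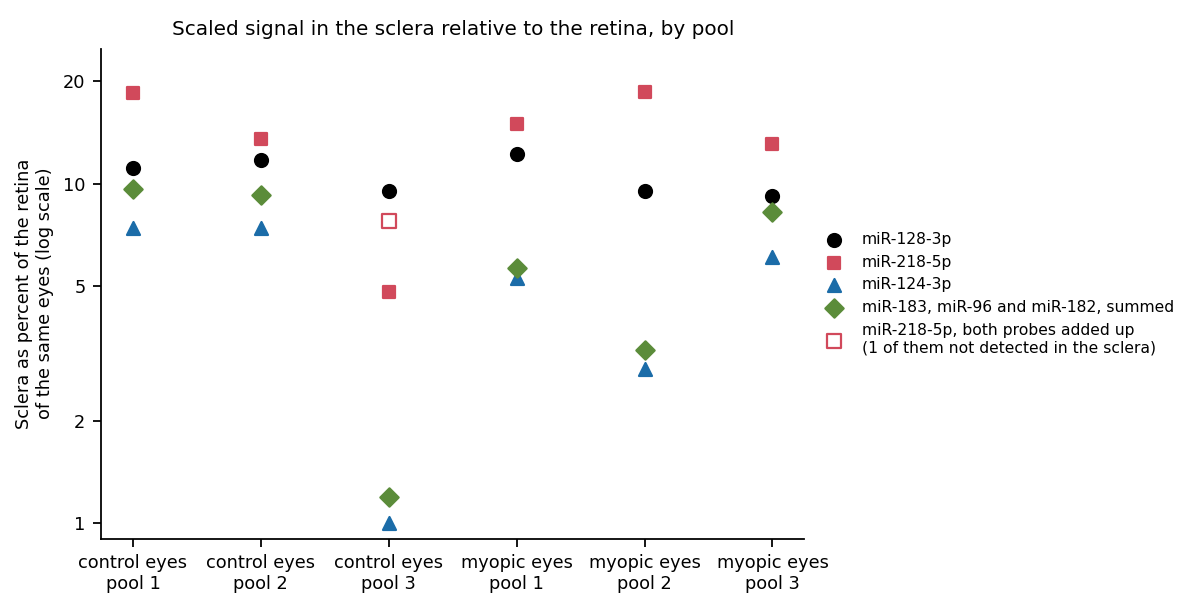
Scaled signal in the sclera as percent of the retina of the same pool (log scale) for miR-128-3p, miR-218-5p, miR-124-3p and the summed miR-183, miR-96 and miR-182. MiR-128-3p stays between 9.17% and 12.2% in all 6 pools, while miR-124-3p and the summed photoreceptor miRNAs lie at 1.00% and 1.19% in control pool 3. There miR-218-5p is at 4.78% from 1 detected sclera probe (filled square) and at 7.75% with both probes added up (open square).

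Form deprivation was compared next within the retina, which asks whether blur over 10 days alters these neuronal miRNAs. None of the 5 tested members was called (background 0.226%). By limma 2 of the 5, miR-137-3p and miR-138-5p, had an unadjusted p under 0.05, compared with 29.3% of all tested miRNAs. The linear model without moderation also called 0 and gave 2. The spread of miR-137-3p and miR-138-5p was pooled over the 4 groups, and their sclera values, all at the floor, added none. Their SE and p-values, here and below, are thus not those of the retina pools alone. MiR-128-3p differed by 0.04 (SE 0.14, limma adjusted p = 0.95) between the myopic and the control retina. MiR-218-5p differed by -0.22 (SE 0.31, limma adjusted p = 0.76).

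MiR-137-3p had a log2 level of 6.70 ± 0.24 (SD, n = 3) in the control and 6.31 ± 0.22 (SD, n = 3) in the myopic retina, a difference of -0.39 (SE 0.15, limma adjusted p = 0.15). It was lower in the myopic retina in 3 of 3 pools, with differences of -0.23, -0.73 and -0.22. MiR-138-5p had a log2 level of 7.33 ± 0.17 (SD, n = 3) in the control and 7.03 ± 0.17 (SD, n = 3) in the myopic retina, a difference of -0.30 (SE 0.13, limma adjusted p = 0.16). The pool differences were -0.27, -0.63 and 0.00, so that miR-138-5p was lower in 2 of 3 pools.

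These small differences depended on the scaling. Under quantile normalization the median of those 329 miRNAs that every retina array detected had itself a log2 difference of -0.22, and under scaling to the 75th percentile it was -0.02. Relative to the quantile median, miR-137-3p differed by -0.18, miR-138-5p by -0.08, miR-218-5p by 0.00 and miR-128-3p by 0.26. Under the percentile scaling the fitted differences were -0.04 for miR-137-3p, 0.01 for miR-138-5p, -0.11 for miR-218-5p and -0.02 for miR-128-3p, so that miR-138-5p and miR-128-3p changed sign.

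The percentile-scaled signals show how close the groups were. MiR-137-3p had scaled signals of 95.8, 99.8 and 96.0 in the control retina and 91.8, 94.8 and 97.8 in the myopic retina. MiR-138-5p had 163, 160.5 and 134 in the control retina and 149, 153 and 156 in the myopic retina. MiR-218-5p had 362, 406 and 459 in the control retina and 362, 373 and 393 in the myopic retina, and miR-128-3p had 777, 834 and 863 against 789, 844 and 813. The control and the myopic arrays overlapped for each of the 4 miRNAs. For miR-137-3p the 95% interval of the log2 difference ran from -0.21 to 0.14 under this scaling and from -0.74 to -0.05 under quantile normalization, and for miR-128-3p it ran from -0.29 to 0.26 and from -0.27 to 0.36. Both intervals of miR-137-3p draw on the spread pooled over the groups, in which all of its sclera values sat at the floor. The interval of miR-218-5p was wider, from -0.92 to 0.69 under the percentile scaling.

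**Figure D4:**
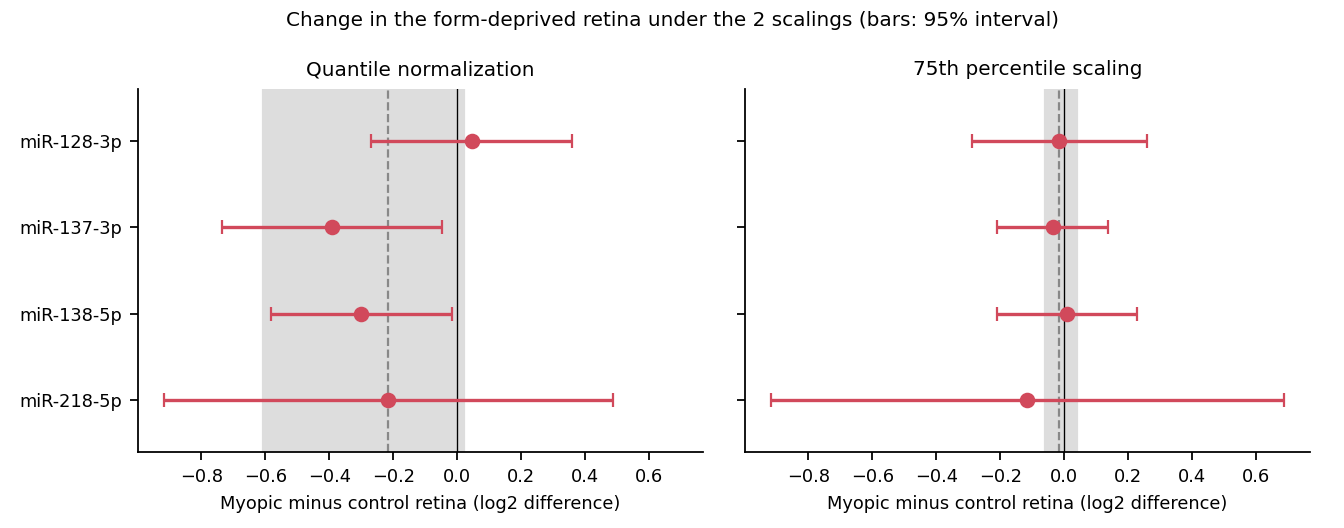
Log2 difference between myopic and control retina of the 4 main strands, with 95% intervals, under quantile normalization (left) and under scaling to the 75th percentile (right). The dashed line and the grey band are the median and the quartiles of the 329 miRNAs that every retina array detected. The median is at -0.22 on the left and at -0.02 on the right, where all 4 members lie between -0.11 and 0.01.

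With array weights estimated by limma, the differences under quantile normalization were -0.67 for miR-137-3p (limma adjusted p = 1.4e-05) and -0.54 for miR-138-5p (limma adjusted p = 4.1e-05), both under the fold change of 2, and miR-138-1-3p was called lower at -1.55 (limma adjusted p = 0.012). The array weights called 146 of the 443 tested miRNAs (background 33%), and the estimation of the weights stopped before its convergence tolerance was met. Over the alternatives, the limma adjusted p of miR-137-3p and of miR-138-5p reached 1, and that of miR-138-1-3p also reached 1. In the same comparison without weights, 0 of 11 neuronal markers were called between myopic and control retina, with a median log2 difference of -0.06, compared with -0.12 over all miRNAs tested. The mesenchymal list had a median log2 difference of -1.28, with 1 of its 6 miRNAs, miR-145-5p, called lower, and its summed total gene signal ran from 129 to 542 in the control retina and from 134 to 194 in the myopic retina. Its part in the differences of the members was not tested.

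In the sclera the question was whether deprivation alters the remaining level of these miRNAs. By limma 0 of the 5 tested members were called (background 0%) and 0 had an unadjusted p under 0.05 (background 2.93%), also without moderation. MiR-137-3p, miR-138-5p and miR-138-1-3p sat at the floor on every sclera array, which fixed their differences at 0. Only miR-128-3p and miR-218-5p could thus have been called. MiR-128-3p had a log2 level of 7.13 ± 0.19 (SD, n = 3) in the myopic sclera, a difference of 0.07 (SE 0.14, limma adjusted p = 1) from the control. MiR-218-5p had a log2 level of 6.65 ± 0.22 (SD, n = 3), a difference of 0.42 (SE 0.31, limma adjusted p = 1), which became 0.01 without control sclera array 3. In order of level, both retina groups stood above both sclera groups for miR-128-3p and miR-218-5p, and neighbours of the same tissue did not differ by the test. The 95% intervals of the log2 difference between the sclera groups ran from -0.25 to 0.38 for miR-128-3p and from -0.28 to 1.12 for miR-218-5p. MiR-137-3p, miR-138-5p and miR-138-1-3p were undetected in both groups.

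The change in the retina was also set against the change in the sclera by an interaction term. None of the 5 members was called by limma (background 0.226%), and 0 had an unadjusted p under 0.05 (background 8.13%), also without moderation. The largest difference among members detected in both tissues was that of miR-218-5p, at -0.64 (SE 0.44, limma adjusted p = 0.43), which became -0.23 (limma adjusted p = 0.49) without control sclera array 3. For miR-128-3p it was -0.02 (SE 0.20, limma adjusted p = 0.94). MiR-137-3p and miR-138-5p, which lay at the floor in the sclera, kept their retinal differences of -0.39 (limma adjusted p = 0.38) and -0.30 (limma adjusted p = 0.39).

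MiR-138-1-3p, the arm opposite to miR-138-5p on Mir138-1, was near the limit of the arrays. A miRNA was marked as detected where a probe signal exceeded 3 times its error. The brighter probe gave signals of 8.25, 7.61 and 6.83 in the control retina and 8.58, 9.61 and 6.30 in the myopic retina. In the sclera it gave 1.70, 1.49 and 0.57 in the controls and 2.40, 1.01 and 1.28 in the myopic eyes. All 6 retina arrays were thus above all 6 sclera arrays, although on the third array of each retina group the signal came to 2.94 and 2.79 times its error and was listed at 0.1.

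MiR-138-1-3p was tested only because retina arrays detected it, and all of its sclera values were at the floor, so that its retina and sclera calls restate the number of retina arrays that detected it. With the third arrays at the floor, the log2 difference of miR-138-1-3p between control retina and control sclera was 2.27 (SE 0.90, limma adjusted p = 0.052), short of the threshold. With a replicate block for the pools it was called at the same size (limma adjusted p = 0.033). Without control retina array 3 it was 3.48 (limma adjusted p = 0.0011), and without myopic retina array 3 it was 2.22 (limma adjusted p = 0.042). In the myopic eyes the difference was 1.41 (SE 0.90, limma adjusted p = 0.19), and without control retina array 3 it was called at 1.48 (limma adjusted p = 0.038). Over all alternatives the adjusted p ran from 3.8e-05 to 0.95 in the control eyes. Values at the floor have no order, and no bound above 1 could be given for this arm.

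**Figure D5:**
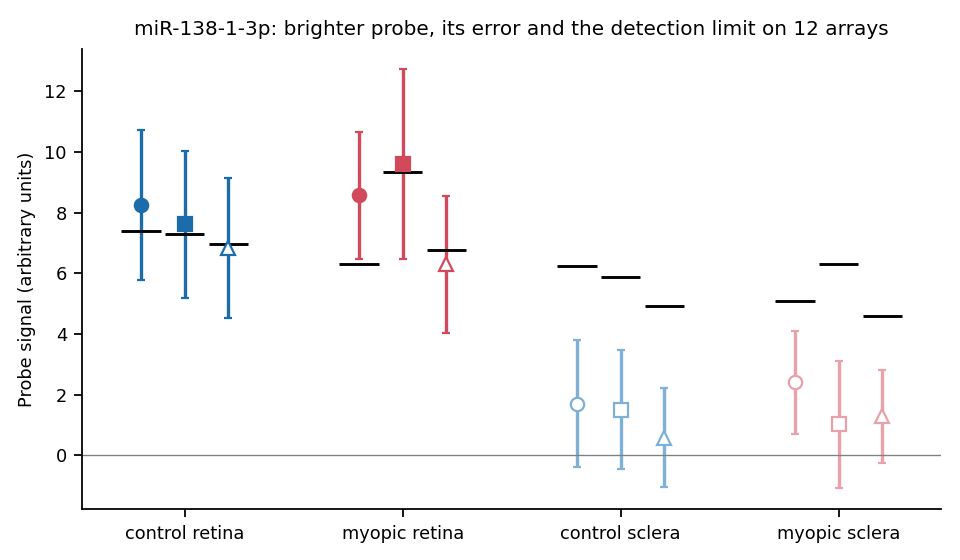
Signal of the brighter probe of miR-138-1-3p (arbitrary units) on each of the 12 arrays, with the error that the image analysis reports. Circle, square and triangle are pools 1, 2 and 3, short black lines mark 3 times the error, and open symbols were not detected. The signals are not scaled between arrays. All retina arrays lie between 6.30 and 9.61 and all sclera arrays between 0.57 and 2.40.

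For miR-138-5p in the sclera, the brighter probe reached at most 2.67 times its error, and for miR-137-3p at most 1.70 times. The 8 probes of the miR-218 opposite arms gave mean processed signals of at most 1.69 on every array.

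The probes of each member were also compared singly. Scaled to the 75th percentile, control retina and control sclera differed by 3.32 and 3.19 on the log2 scale for the probes of miR-128-3p and by 2.98 and 3.03 for those of miR-218-5p. Between myopic and control retina the probes differed by 0.01 and -0.01 for miR-128-3p, by -0.04 and -0.01 for miR-137-3p, by 0.05 and 0.00 for miR-138-5p and by -0.12 and -0.10 for miR-218-5p.

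The deposited log2 values, which the authors made from the same arrays, held 5 of the 7 members. From them miR-128-3p differed by 2.87 and miR-218-5p by 2.63 between control retina and control sclera, and miR-137-3p by -0.41 and miR-138-5p by -0.30 between myopic and control retina (limma adjusted p = 0.15 and 0.16). MiR-138-1-3p was called between control retina and control sclera at 1.89 (limma adjusted p = 0.047).

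The miRNAs that share a shifted seed with miR-128-3p ran the other way. MiR-27a-3p had a log2 level of 8.95 ± 0.30 (SD, n = 3) in the control retina and 11.61 ± 0.38 (SD, n = 3) in the control sclera, a difference of -2.66 (SE 0.21, limma adjusted p = 3.7e-06). MiR-27b-3p differed by -2.11 (SE 0.14, limma adjusted p = 1.0e-06).

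The miRNAs whose profile over the 12 arrays was most like that of a member were found by the root mean square difference of the log2 levels, each miRNA centred on its own mean. For miR-128-3p they were miR-210-3p at 0.16, miR-181b-5p at 0.19 and miR-130b-3p at 0.19, against a median of 1.60 over 244 candidates. For miR-218-5p they were miR-29c-5p at 0.28, miR-29c-3p at 0.32 and miR-29b-3p at 0.33, against a median of 1.41. None of these 6 nearest miRNAs belonged to the neuronal list, which made up only 6 of the 244 candidates, so that its absence says little.

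For miR-137-3p the nearest were miR-873-5p at 0.26, miR-323-3p at 0.43 and miR-344b-3p at 0.47, and for miR-138-5p they were miR-344b-3p at 0.14, miR-384-5p at 0.15 and miR-375-3p at 0.17, over 350 candidates. All of these were undetected on every sclera array, so that values at the floor enter each likeness. Among the members, miR-137-3p and miR-138-5p differed by 0.35 and miR-128-3p and miR-218-5p by 0.44, while every other pair of the 4 differed by 2.38 to 3.01.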

How the data were processed

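Each of the 12 arrays measured RNA pooled from 3 eyes. The authors deposited the scanner output, made per the file headers with Agilent Feature Extraction 11.0.1.1, whose values are background-subtracted fluorescence intensities without normalization between arrays. A deposited series table holds log2 values, which the authors floored at 0.5 and quantile normalized (Partek 6.6 per the submitters' processing notes). Values computed here and those of the authors had a correlation of 0.999 across miRNAs and arrays, and the filter behind their 437 mouse miRNAs is not given in the sources used here.

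After a floor at 0.5, the total gene signals of 696 names were quantile normalized and taken to log2. The 253 names without detection were dropped, and the other 443 were tested by a linear model of the 4 groups with 8 residual degrees of freedom in limma 3.58.1 under R 4.3.3, with Benjamini-Hochberg adjustment. Tests were two-sided. The percentile scaling divided each array by the 75th percentile of the 246 miRNAs detected on all arrays. The alternatives changed the scaling, the floor, the source of the values, the filter, the moderation, weights, the samples in the fit and the pairing, and left out each array. The number of 3 arrays per group limits the precision. Members and marker lists were chosen with earlier results of these data known, and the named miRNAs are the members, the 3 nearest profiles of each main strand, seed relatives and examples of the lists. The fit was tested on simulated data.

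The labels give each pool number a mouse, so that the numbers pair the eyes. The deviations from the group means had correlations of 0.38, -0.46 and 0.59 in the retina pairs and -0.14, -0.16 and -0.00 in the sclera pairs, over 246 miRNAs. Python 3.11.15, pandas 2.3.3, numpy 2.4.6 and matplotlib 3.10.9 were used for tables and figures.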

Additional observations from a re-analysis of the deposited data

How the results depend on the processing

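Over 27 alternative settings, 603 of 655 member values neither changed sign nor crossed the threshold. Of the rest, 37 changed sign, all of them uncalled in the first place, 5 fell below the threshold and 10 rose above it. The 603 include 26 values each of miR-137-3p, miR-138-1-3p and miR-138-5p between the sclera groups. Their main difference was 0 at the floor, so that no change of sign could be counted. Processed spot signals gave 1.01 for miR-138-1-3p and 0.73 for miR-138-5p in that comparison. Unless stated otherwise, the cause of a change was not tested. With the pools paired by a replicate block, 5 members were called between control retina and control sclera, 4 between myopic retina and myopic sclera and 0 in the other comparisons, and miR-138-1-3p (2.27, limma adjusted p = 0.033) was the only member whose call changed, with all sclera values at the floor; over all miRNAs the interaction gave 0 calls. Leaving out 1 array at a time gave 4 to 5 members in both tissue comparisons and 0 to 0 in the others. Of the members, normexp background correction called 2 in control and 1 in myopic eyes between the tissues, with differences under the fold change of 2 for miR-137-3p (0.44 and 0.35), miR-138-5p (0.65 and 0.54) and, in myopic eyes, miR-218-5p (0.80), and the filter to miRNAs detected on all arrays called 2 and 2 because it removes the others. The normexp setting adds an offset of 50 to every signal before the log, which narrows log2 differences where signals are low. Array weights called 1 member between myopic and control retina. Over all miRNAs, between myopic and control retina 1 was called, compared with 0 under percentile scaling with a higher floor (each array's dimmest detected signal), processed spot signals, normexp, the filter to all arrays and a fit of the compared groups alone, 2 with deposited values, 146 with array weights and 1 to 122 without 1 array (122 without control retina array 1, 13 without myopic retina array 3). Between the sclera groups 0 were called, with 1 under array weights and 0 to 1 without 1 array. Between control retina and control sclera 224 were called, with 67 under normexp, 128 under the filter to all arrays and 191 to 224 without 1 array, and in myopic eyes 261, with 74, 139 and 249 to 269. The interaction called 1, with 0 under percentile scaling with the higher floor, deposited values, processed spots, normexp and the filter, 156 under array weights and 0 to 112 without 1 array. The log2 differences that changed sign lay between -0.39 and 0.22 in the settings that reversed them. Those of miR-138-1-3p between retina and sclera had been 2.27 in control and 1.41 in myopic eyes. For miR-128-3p they were, between the retina groups, -0.016 under percentile scaling with either floor, -0.37 when the percentile was taken over all names, -0.033 with array weights and -0.0010 to 0.11 without 1 array. Between the sclera groups they were -0.087 under percentile scaling with either floor, -0.0058 over all names, -0.13 without normalization, -0.041 with array weights and -0.039 to 0.16 without 1 array. For its interaction they were 0.071 with either floor, 0.22 without normalization, 0.016 under normexp, 0.0084 with array weights and -0.12 to 0.084 without 1 array. MiR-137-3p reached 0.070 without normalization between the retina groups and in the interaction, and 0.039 in the interaction under percentile scaling with the higher floor. MiR-138-5p reached 0.0092 under percentile scaling with either floor and 0.12 without normalization between the retina groups, and 0.0092, 0.12 and, with the higher floor, 0.084 in the interaction. MiR-138-1-3p reached 0.13 without normalization and 0.017 with the higher floor between the retina groups, 0.13 and 0.092 in the interaction, -0.034 with the higher floor between control retina and control sclera, and, between myopic retina and myopic sclera, -0.39 with processed spot signals and -0.0022 under normexp. Signal over background limits miR-138-1-3p on all arrays and miR-137-3p and miR-138-5p in the sclera.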
